A study of Mus musculus with 10 samples.

Results

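The 10 genes described here encode receptors and adaptors with which innate immune cells sense mycobacteria. They are the C-type lectin receptors Clec7a (also called Dectin-1), Clec4e (Mincle), Clec4d (MCL) and Clec4n (Dectin-2), the Toll-like receptors Tlr2, Tlr4 and Tlr9, the cytosolic receptor Nod2, and the adaptors Card9 and Myd88. They were chosen by gene name, and all 10 were found among the 54987 genes of the deposited table. Values are FPKM, read counts scaled for gene length and by a factor per library, which can be compared between genes. All 10 genes passed the filter on low values, which asked for 0.5 FPKM or more in 3 libraries or more. RNA was sequenced from the popliteal lymph node, which receives lymph from the hind paw, at day 15. By the labels, all donors were BALB/c males, 6 to 8 weeks old. The Control group (3 libraries) had 0.1 ml of saline injected under the skin of the right hind paw. The AIA group (4 libraries) had 0.1 ml of complete Freund's adjuvant there. The Acu group (3 libraries) had the same adjuvant and acupuncture at ST36, a point below the knee, on a schedule that the labels leave out. The labels do not say whether a library is 1 mouse or a pool, so the spread behind each p-value is that between libraries and may be technical.

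Complete Freund's adjuvant is an oil emulsion with killed mycobacteria, whose wall is rich in glycolipids. Mincle binds the cord factor of that wall, MCL is its partner on the cell surface, Dectin-2 binds mannose-bearing lipids, and Dectin-1 binds fungal glucans and takes part in responses to mycobacteria. These lectins signal through the kinase Syk to Card9 and NF-kB, with the Fc receptor gamma chain as the signalling partner of Mincle, MCL and Dectin-2. Tlr2 binds bacterial lipopeptides, Tlr4 lipopolysaccharide and Tlr9 bacterial DNA, and each of them uses the adaptor Myd88, while Nod2 senses fragments of the bacterial wall inside the cell. In a lymph node the lectins, Tlr2 and Tlr4 are best known from macrophages, monocytes, neutrophils and dendritic cells, and Tlr9 also from B cells.

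Some libraries stood apart. The summed FPKM of 14 decidual and placental markers reached 13459 in the library labelled Control 17 and 12767 in that labelled Acu 4, against 35.7 to 88.6 in the other 8. The label of male donors is therefore poorly borne out by the markers of the libraries labelled Control 17 and Acu 4. B cell markers (8 genes) had a mean log2(FPKM + 1) of 0.28 and 0.44 in these libraries and 0.56 in Control 15, and of 5.95 to 6.68 in the other 7, so the lymph node label is poorly borne out by the markers of those 3. Control 15 and Control 16 held adipocyte markers at means of 10.22 and 8.19 on that scale, against 1.71 to 4.16 in AIA. Genes above 0 numbered 15116 in AIA 10 and 21224 to 24411 in the others, and the reads behind the values ran from 13269763 to 18926894 per library. T cell markers averaged 0.79, 1.03 and 1.02 in Control 15, Control 17 and Acu 4, and 4.47 to 5.30 in the other 7. Skeletal muscle markers summed to 12540 FPKM in Control 16, 3176 in Acu 28, 3058 in Control 15 and 1710 in AIA 31, and to 14.89 to 992 FPKM in the other 6. The members' differences for AIA and for Acu minus AIA are therefore given over all 10 libraries and without the libraries labelled Control 17 and Acu 4. In bulk tissue, fewer cells of a type and less RNA per cell cannot be told apart.

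Clec4n, Clec4d and Clec4e are neighbours on chromosome 6 of mm10, at 123229843 to 123247021 (plus strand), 123262111 to 123275265 (plus strand) and 123281789 to 123289870 (minus strand). Clec7a lies further along the same chromosome, at 129461591 to 129472779 on the minus strand. The bases upstream of the start site are shown for Clec4e, Clec4d and Clec7a because these genes stood higher together in AIA. The RefSeq table (GRCm38.p6) matched 8 of the 10 members, all but Clec4n and Tlr4. Each sequence is 250 bases long, ends at the base before the start site and reads 5′ to 3′ along the gene. Capitals mark GAGGAA, the core bound by the myeloid factor PU.1, and TTGCNNAA, a C/EBP motif, on either strand.

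Clec4e, chr6:123289872-123290121, minus strand: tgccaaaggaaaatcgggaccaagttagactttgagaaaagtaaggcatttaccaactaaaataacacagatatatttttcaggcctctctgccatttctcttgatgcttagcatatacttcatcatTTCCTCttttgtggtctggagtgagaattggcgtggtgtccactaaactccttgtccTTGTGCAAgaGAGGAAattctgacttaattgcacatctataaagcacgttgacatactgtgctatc
Clec4d, chr6:123261857-123262106, plus strand: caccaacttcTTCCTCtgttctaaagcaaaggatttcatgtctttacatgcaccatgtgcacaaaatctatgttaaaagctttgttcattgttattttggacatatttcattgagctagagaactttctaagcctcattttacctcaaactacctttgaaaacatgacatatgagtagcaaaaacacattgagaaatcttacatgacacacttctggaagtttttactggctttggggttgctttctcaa
Clec7a, chr6:129472780-129473029, minus strand: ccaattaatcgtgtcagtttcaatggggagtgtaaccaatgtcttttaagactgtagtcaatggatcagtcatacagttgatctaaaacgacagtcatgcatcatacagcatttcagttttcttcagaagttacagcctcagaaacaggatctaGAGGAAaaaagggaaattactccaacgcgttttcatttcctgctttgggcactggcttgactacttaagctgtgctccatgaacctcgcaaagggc

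Clec4e held the PU.1 core at 2 places, 123 and 56 bases before its start, and the C/EBP motif at 66 bases before it. Clec4d held the PU.1 core once, at 240 bases, and Clec7a once, at 96 bases. Of the other matched members, Tlr9, which did not pass in AIA against Control, held it at 112 bases. Tlr2, Nod2, Card9 and Myd88 did not hold it. The PU.1 core was present in 23.25% and the C/EBP motif in 9.56% of 32851 RefSeq promoters of the same length. The third motif searched, that of NF-kB, was in none of the sequences shown, in 4.65% of all promoters, and in that of Tlr2 as GGGGAATTCC, 173 bases before its start. A match describes these letters and is not a binding site shown by the data.

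The lectins were the members with the widest gap between the AIA and Control libraries. Of the Control libraries, only Control 16 had B cell markers at the AIA level (means of 6.34, and of 5.95 to 6.60 in AIA). The fits without the libraries labelled Control 17 and Acu 4 still held Control 15, with a mean of 0.56. Clec4n was 91.9, 46.1, 50.7 and 90.5 FPKM in AIA 5, 10, 31 and 38, and 0.600, 7.38 and 1.05 FPKM in Control 15, 16 and 17. The groups did not overlap, and the lowest AIA library was far above Control 16, the highest Control library. Its mean was 69.8 ± 24.8 FPKM in AIA (SD, n = 4) and 3.01 ± 3.79 FPKM in Control (SD, n = 3), the highest AIA mean of the 10 genes. On the log2(FPKM + 1) scale, which makes changes of low genes look smaller, Clec4n stood 4.48 higher in AIA (SE 1.03, limma adjusted p = 0.0710). Without the libraries labelled Control 17 and Acu 4 it rose by 4.20 (SE 0.63, limma adjusted p = 0.00615).

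Clec7a was 64.9, 44.8, 45.1 and 50.3 FPKM in AIA 5, 10, 31 and 38, and 4.38, 1.496 and 11.1 FPKM in Control 15, 16 and 17. All AIA libraries were above all Control libraries, and the highest Control value was that of the library labelled Control 17. The AIA mean of 51.3 ± 9.43 FPKM (SD, n = 4) had a small spread for its size, against 5.66 ± 4.93 FPKM in Control (SD, n = 3). Clec7a stood 3.24 higher in AIA over all libraries (SE 0.60, limma adjusted p = 0.0622) and rose by 3.82 without the 2 libraries that stood apart (SE 0.37, limma adjusted p = 0.00277). The annotation classes Clec7a as a polymorphic pseudogene, a gene that is intact in some strains. FPKM of whole genes do not tell its long and short isoforms apart.

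Clec4d was 28.01, 28.5, 9.22 and 8.02 FPKM in AIA 5, 10, 31 and 38, and 0.989, 0.283 and 0.407 FPKM in Control 15, 16 and 17. The AIA libraries fell into a high pair, AIA 5 and AIA 10, and a lower pair, AIA 31 and AIA 38, all above Control. Clec4d stood 3.45 higher over all libraries (SE 0.75, limma adjusted p = 0.0667) and rose by 3.39 without the 2 libraries that stood apart (SE 0.62, limma adjusted p = 0.0126). Clec4e, the lowest of the lectins in AIA, was 14.5, 6.72, 4.68 and 5.11 FPKM in AIA 5, 10, 31 and 38. It was 0, 0.130 and 1.80 FPKM in Control 15, 16 and 17, where 0, 10 and 137 reads lay behind these values. The 0 of Control 15 allows up to 0.0368 FPKM, the level of 3 reads. Clec4e stood 2.45 higher over all libraries (SE 0.57, limma adjusted p = 0.0714) and rose by 2.92 without those 2 libraries (SE 0.43, limma adjusted p = 0.00577).

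**Figure D1:**
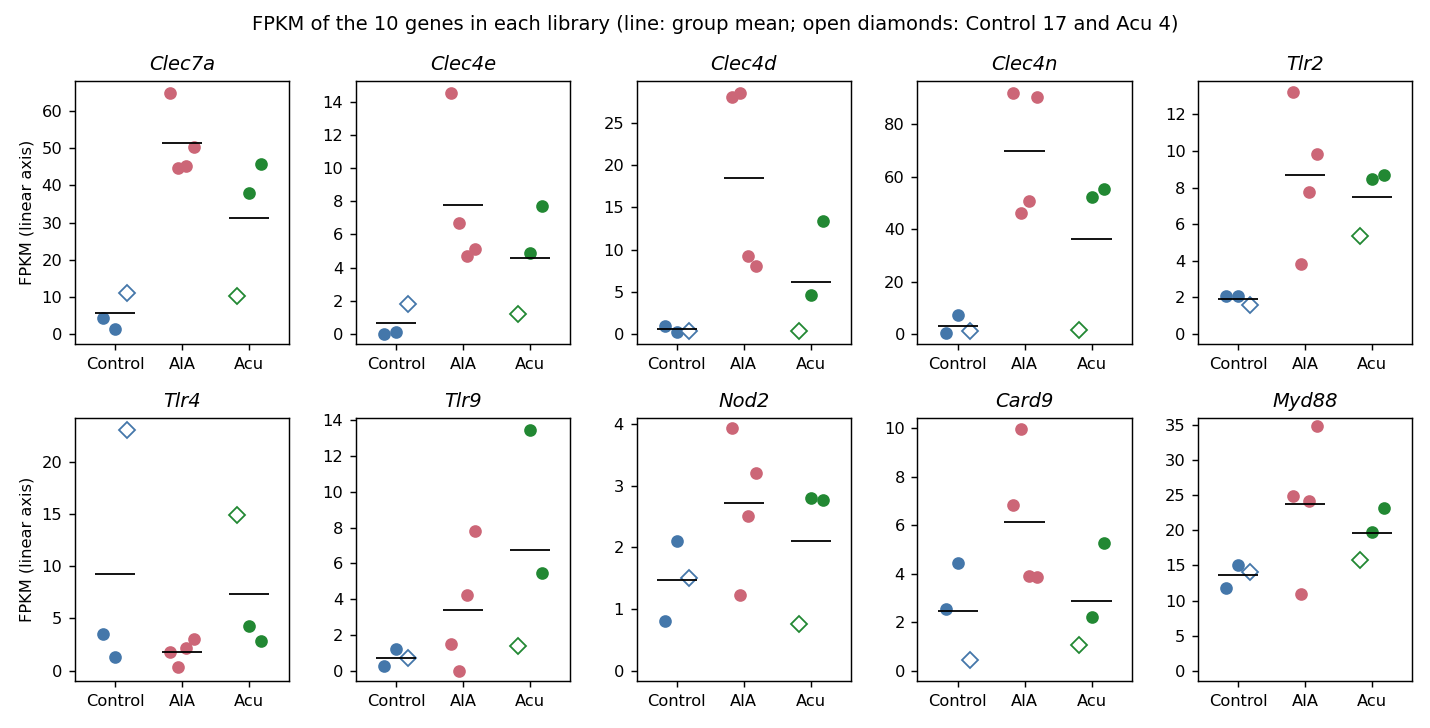
FPKM of each gene (vertical axes, linear, a scale of its own per gene) in the 3 groups, 1 point per library, with the group mean as a line and open diamonds for the libraries labelled Control 17 and Acu 4. The AIA points of Clec7a, Clec4e, Clec4d, Clec4n and Tlr2 lie above every Control point, and Tlr4 is highest in the 2 diamonds, at 23.0 and 14.9 FPKM.

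The balance among the lectins was not fixed. The 4 lectins summed to 109.7 to 199.4 FPKM in AIA and to 5.97 to 14.4 FPKM in Control. Clec7a made up 32.6% to 41.1% of that sum in AIA, and 73.4%, 16.1% and 77.3% in Control 15, 16 and 17. The ratio of Clec4d to Clec4e, whose products pair on the cell surface, was 1.93, 4.25, 1.97 and 1.57 in AIA 5, 10, 31 and 38. The ratio of Clec4n to Clec4d ran from 1.62 in AIA 10 to 11.3 in AIA 38, and the 3 neighbours differed in proportion between libraries of 1 group.

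The other genes of the Clec4 cluster did not all share the higher level of these 3. Clec4a1 and Clec4a3, which lie at lower coordinates and encode lectins of the DCIR family, were 7.19 to 20.1 and 15.9 to 27.7 FPKM in AIA, against 2.87 to 5.51 and 2.15 to 6.74 FPKM in Control. Clec4a2 was 2.92 to 6.31 FPKM in AIA and 0.774 to 2.85 FPKM in Control. Clec4b1 went the other way in its highest values, with 0 to 1.65 FPKM in AIA and 0.332 to 4.42 FPKM in Control, and the groups overlapped. Clec4a4 was at most 0.963 FPKM and Clec4b2, the gene next to Clec4n, at most 0.336 FPKM in any library.

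**Figure D2:**
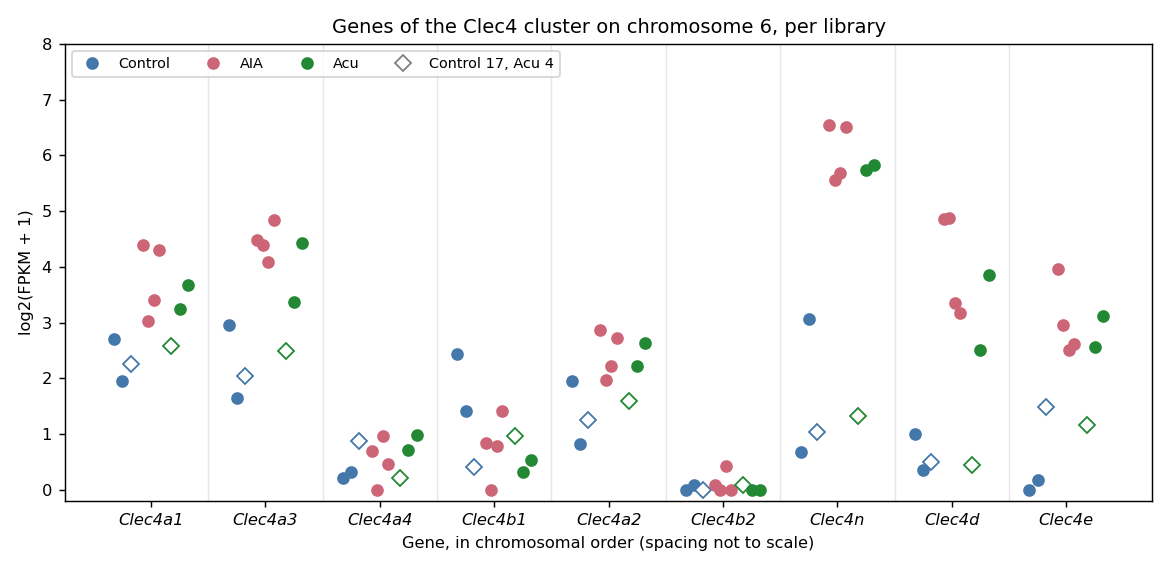
log2(FPKM + 1) of the 9 Clec4 genes of the cluster, in chromosomal order along the horizontal axis (not to scale), 1 point per library, coloured by group, with open diamonds for the libraries labelled Control 17 and Acu 4. Clec4n, Clec4d and Clec4e, at the right end, have every AIA point above every Control point, while Clec4b2 beside them is near 0 in all libraries.

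Tlr2 was the only Toll-like receptor of the 3 whose AIA and Control libraries did not overlap. It was 13.2, 3.80, 7.77 and 9.84 FPKM in AIA 5, 10, 31 and 38, and 2.06, 2.06 and 1.58 FPKM in Control 15, 16 and 17. The lowest AIA library, AIA 10, was the one with the fewest genes above 0. Tlr2 stood 1.64 higher in AIA over all libraries (SE 0.38, limma adjusted p = 0.0715) and rose by 1.55 without the 2 libraries that stood apart (SE 0.42, limma adjusted p = 0.0452).

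Tlr4 did not follow Tlr2. It was 1.82, 0.318, 2.16 and 3.06 FPKM in AIA 5, 10, 31 and 38, and 3.55, 1.29 and 23.0 FPKM in Control 15, 16 and 17. Highest of all were the library labelled Control 17 and that labelled Acu 4 (14.9 FPKM), the 2 with decidual and placental markers. The difference between AIA and Control was −1.26 over all libraries (SE 0.80, limma adjusted p = 0.338) and −0.30 without those 2 (SE 0.49, limma adjusted p = 0.726). Within libraries, Tlr2 exceeded Tlr4 by 3.21 to 12.0 times in AIA and was 0.0684 to 1.59 times its level in Control.

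Tlr9 spread widely within AIA. It was 1.49, 0, 4.22 and 7.80 FPKM in AIA 5, 10, 31 and 38, where the 0 of AIA 10 allows up to 0.0761 FPKM, the level of 3 reads. It was 0.245, 1.23 and 0.693 FPKM in Control 15, 16 and 17, and the groups overlapped. Tlr9 stood 0.97 higher in AIA (SE 0.77, limma adjusted p = 0.448), and 0.97 without the 2 libraries that stood apart (SE 0.80, limma adjusted p = 0.456). The B cell markers of AIA 10 averaged 5.95, against 6.29 to 6.60 in the other AIA libraries, with none of the 8 markers at 0. Single markers differed more, with Cd22 at 22.4 FPKM (87.4 to 97.2 in the other AIA libraries) and Cd79b at 700 FPKM (247 to 351). AIA 10 also had the fewest genes above 0, and the cause of its Tlr9 value was not tested.

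Nod2 was low in all libraries, at 3.94, 1.23, 2.51 and 3.203 FPKM in AIA 5, 10, 31 and 38 and 0.813, 2.10 and 1.51 FPKM in Control 15, 16 and 17. The groups overlapped, and the difference was 0.56 (SE 0.40, limma adjusted p = 0.388), and 0.59 without the libraries that stood apart (SE 0.38, limma adjusted p = 0.337). Card9, the adaptor of the lectins, was 6.84, 9.96, 3.90 and 3.87 FPKM in AIA 5, 10, 31 and 38, and 2.55, 4.46 and 0.426 FPKM in Control 15, 16 and 17. Control 16 lay above AIA 31 and AIA 38, and the difference was 1.155 (SE 0.55, limma adjusted p = 0.220). It was 0.61 without the libraries that stood apart (SE 0.45, limma adjusted p = 0.399).

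Myd88, the adaptor of the Toll-like receptors, was the highest of the adaptors in every library. It was 24.8, 10.99, 24.1 and 34.8 FPKM in AIA 5, 10, 31 and 38, and 11.8, 15.1 and 14.1 FPKM in Control 15, 16 and 17. Only AIA 10 fell among the Control libraries, below all 3 of them. The difference was 0.65 (SE 0.38, limma adjusted p = 0.299) and 0.68 without the libraries that stood apart (SE 0.44, limma adjusted p = 0.338). With AIA 10 left out as well it rose by 0.99 (SE 0.26, limma adjusted p = 0.0382), 1 of 6 members to do so where 9.25% of genes rose. In GENCODE M21, 290 of the 2576 exon bases of Myd88 overlap Acaa1a, and 87 of the 2293 of Card9 overlap Gm13562, both on the opposite strand. No source used here says whether counting was by strand, so reads of the partner may be included in these values.

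Over all 10 libraries limma called 0 of the 10 members in AIA against Control, where it called 4 of 17010 genes (0.0235%). At an unadjusted p under 0.05 there were 5 members and 4244 genes (25.0%). The AIA libraries lay above all Control libraries for 5 of 10 members and for 11.4% of all genes. Without the libraries labelled Control 17 and Acu 4, which were left out with earlier results in view, 5 of 10 members rose, the 4 lectins and Tlr2, where 4.36% of 16067 genes rose and 9.06% fell. The median difference of the members was 1.26 in that fit, and that of all genes 0.00033. Leaving out 1 library alone changed the count, to 5 members higher without the library labelled Acu 4, where 4.68% of genes rose, and to 2 without the library labelled Control 17, where 1.23% rose. Leaving out both and Control 15 as well left Clec7a (4.37, SE 0.36, limma adjusted p = 0.0202) and Clec4n (3.01, SE 0.50, limma adjusted p = 0.0377), where 0.466% of genes rose. Clec4e, Clec4d and Tlr2 then had limma adjusted p-values of 0.0593, 0.0761 and 0.239. That fit holds 1 Control library, whose spread is taken to be that of the other groups.

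**Figure D3:**
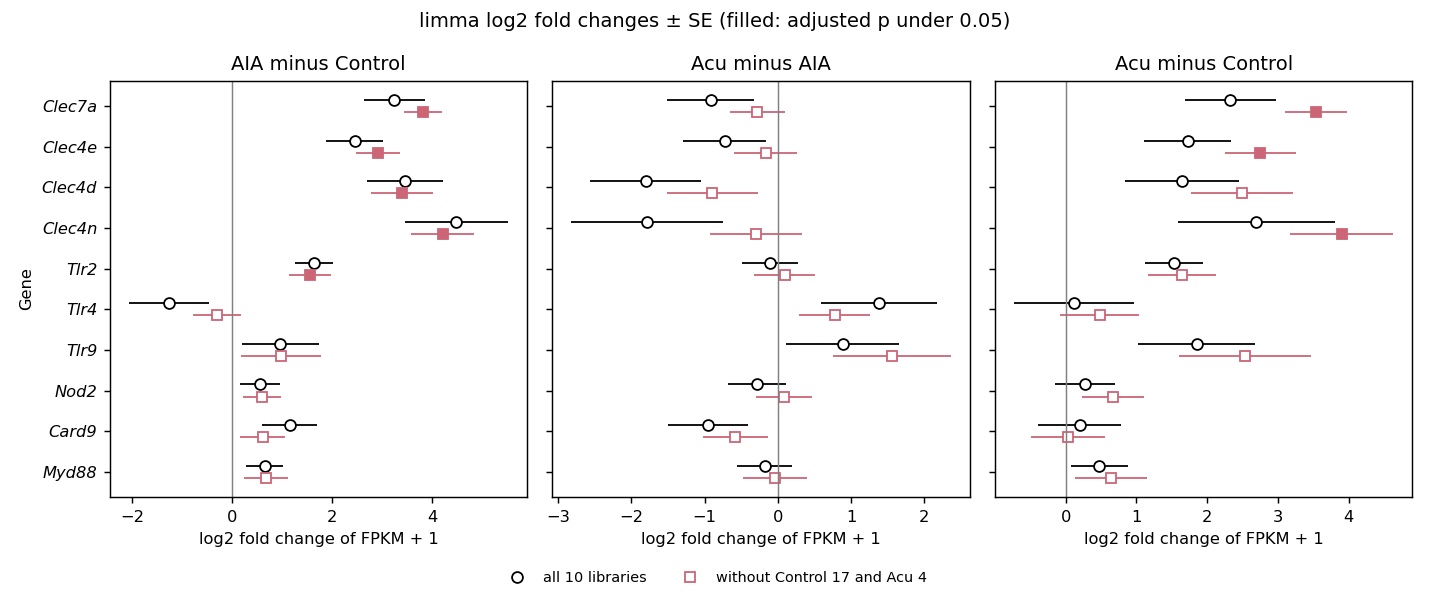
limma log2 fold changes of FPKM + 1 with their SE (horizontal axes) for the 10 genes in the 3 comparisons, from all 10 libraries (circles) and without the libraries labelled Control 17 and Acu 4 (squares), filled where the adjusted p is under 0.05. No circle is filled, and the filled squares are the 4 lectins and Tlr2 in AIA minus Control and Clec7a, Clec4e and Clec4n in Acu minus Control.

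Summed markers of macrophages, monocytes and dendritic cells were higher in AIA, though single genes carried much of each sum. The 14 macrophage and monocyte markers summed to 561 to 687 FPKM in Control, 2480 to 4004 FPKM in AIA, and 722, 2359 and 3616 FPKM in Acu 4, 6 and 28. At most 1 of them was at 0 in a library, Marco in the library labelled Control 17 and Mertk in AIA 10. Lyz2 alone was 1739 to 2939 FPKM in AIA. Lyz2, Fcgr1, Ly6c2, Ccr2, C1qa, C1qb and Ctss were higher in all AIA than in all Control libraries, and the other listed markers overlapped. Cd163 was 5.02, 3.74 and 0.155 FPKM in Control 15, 16 and 17, and 0.140 to 0.598 FPKM in AIA. The 13 neutrophil markers summed to 9.12, 11.9 and 462 FPKM in Control 15, 16 and 17, against 72.3 to 793 FPKM in AIA, of which AIA 10 had 310 FPKM. S100a8 made up 453 FPKM of the sum in the library labelled Control 17. In AIA 10, Ly6g and 5 others of these markers were at 0, while S100a8 was 90.8 and S100a9 194 FPKM. The 10 dendritic markers summed to 24.8 to 377 FPKM in Control, against 662 to 1680 FPKM in AIA. H2-Ab1 alone was 541 to 1520 FPKM in AIA. Their mean log2(FPKM + 1) was 1.85, 3.15 and 0.95 in Control 15, 16 and 17, and 3.32 to 3.67 in AIA. Itgax, Xcr1, Ccr7 and H2-Ab1 were higher in all AIA than in all Control libraries, and the other dendritic markers, such as Zbtb46 and Cd209a, overlapped. The part of these cell types in the members' differences was not tested.

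Levels were also set against the mean log2(FPKM + 1) of the macrophage and monocyte markers of the same library. Clec4n, Clec7a and Clec4d then had AIA and Control libraries that did not overlap. The share of all genes that would do so was not computed. The list mixes markers higher in all AIA than in all Control libraries, such as Ly6c2 and Ccr2, with others that overlapped, such as Cd163. Its mean covers both kinds, and whether the members rose beyond the first kind was not tested. Clec4n lay 1.06 to 1.75 above that mean in AIA and between −3.10 and −0.43 in Control. Clec7a lay 0.67 to 1.25 above it in AIA and between −2.17 and 0.10 in Control, and Clec4d between −1.84 and 0.38 in AIA and between −3.13 and −2.79 in Control. Clec4e (−2.40 to −0.84 in AIA, −3.78 to −2.01 in Control) and Tlr2 (−2.23 to −0.96 in AIA, −2.17 to −1.88 in Control) overlapped. Myd88 and Nod2 overlapped as well, and Tlr4 was lower relative to these markers in all AIA libraries (−4.10 to −2.70) than in all Control libraries (−2.30 to 1.09). Without Control 17, the Control range was −2.17 to −1.35 for Clec7a, −3.78 to −3.32 for Clec4e, which then did not overlap, and −2.30 to −1.59 for Tlr4. Against the 13 neutrophil markers, Clec4n (2.17 to 4.17 in AIA, −0.16 to 2.41 in Control), Clec7a (1.34 to 4.003 and 0.66 to 2.40) and Clec4d (−1.17 to 2.92 and −0.70 to 0.39) overlapped. Against the 8 B cell markers they overlapped too, with Clec4n at −0.91 to 0.25 in AIA and −3.27 to 0.76 in Control. Control 15 and 17 had almost no B cell markers (means of 0.56 and 0.28), so this overlap says little. Control 16, with a mean of 6.34, was at −3.27 for Clec4n, −5.02 for Clec7a and −5.98 for Clec4d, below all AIA libraries. Overlap against the neutrophil markers came from AIA 38, whose mean of these was 4.34, against 1.52 to 2.76 in the rest of AIA. The lists therefore give no contrast between cell types. These are differences of log2 levels, described without a test.

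**Figure D4:**
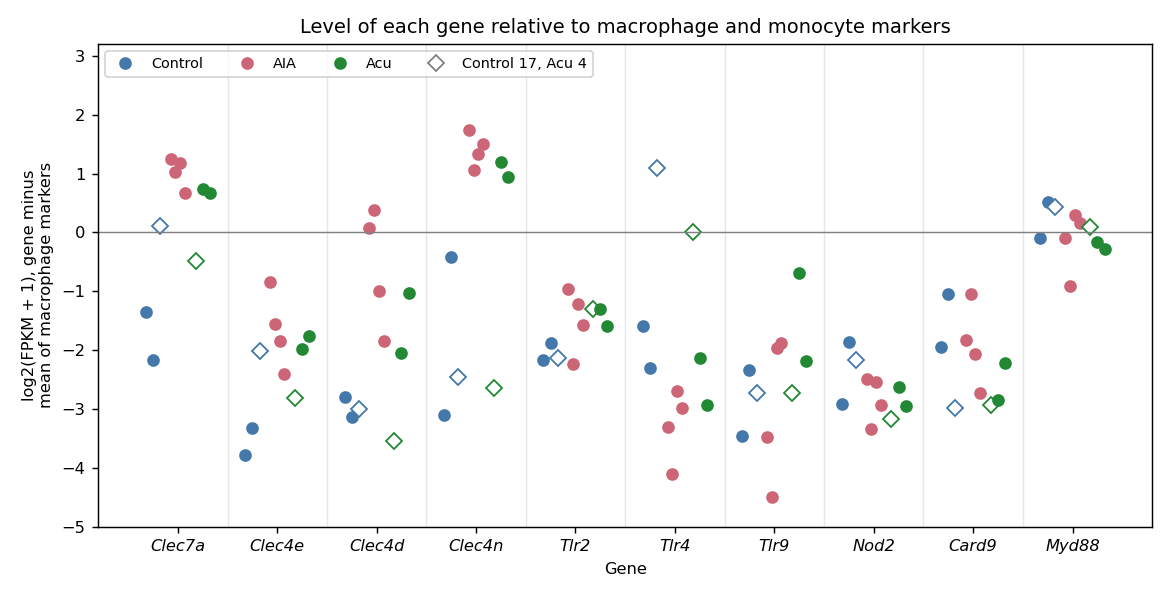
log2(FPKM + 1) of each gene minus the mean log2(FPKM + 1) of the 14 macrophage and monocyte markers in the same library (vertical axis), 1 point per library, coloured by group, with open diamonds for the libraries labelled Control 17 and Acu 4. The AIA points of Clec4n, Clec7a and Clec4d lie above every Control point, those of Tlr4 lie below, and those of the other members overlap with Control.

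Acu was compared with AIA to ask what acupuncture changed under the adjuvant, and none of the 10 genes passed. The comparison holds no sham acupuncture group, so acupuncture at ST36 and the handling that goes with it cannot be told apart. limma called 0 of the 10 members and 0 of 17010 genes (0.0%) over all libraries, with 1 member and 800 genes (4.7%) at an unadjusted p under 0.05. The count was also 0 with voom. Within Acu, the library labelled Acu 4 differed from the other pair in every lectin. Clec4n was 1.504 FPKM in Acu 4, 52.2 FPKM in Acu 6 and 55.5 FPKM in Acu 28, the last 2 inside the AIA range. Clec7a was 10.3, 37.95 and 45.7 FPKM in Acu 4, 6 and 28, with Acu 6 below all AIA libraries. Clec4d was 0.354, 4.66 and 13.4 FPKM and Clec4e 1.23, 4.90 and 7.69 FPKM in the same order.

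Over all libraries the differences Acu minus AIA were −0.92 for Clec7a (SE 0.60), −0.73 for Clec4e (SE 0.57), −1.80 for Clec4d (SE 0.75) and −1.78 for Clec4n (SE 1.03), each with a limma adjusted p of 0.746. Clec4d was the member with an unadjusted p under 0.05. Without the libraries labelled Control 17 and Acu 4 those differences were −0.28 (SE 0.37), −0.17 (SE 0.43), −0.89 (SE 0.62) and −0.30 (SE 0.63), each with a limma adjusted p of 0.984, and 0.0% of 16067 genes were called. The lowest lectin values of Acu were those of the library labelled Acu 4, whose B cell markers averaged 0.44.

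Tlr2 was 5.36, 8.48 and 8.69 FPKM in Acu 4, 6 and 28, all within the AIA range, and its difference was −0.10 (SE 0.38, limma adjusted p = 0.935), and 0.094 without the libraries labelled Control 17 and Acu 4 (SE 0.42, limma adjusted p = 0.990). Tlr9 was 1.37, 13.5 and 5.44 FPKM, and Acu 6 held the highest level of any library, above AIA 38. Its difference was 0.89 over all libraries (SE 0.77, limma adjusted p = 0.751) and 1.56 without the libraries that stood apart (SE 0.80, limma adjusted p = 0.984). Tlr4 was 14.9, 4.31 and 2.82 FPKM in Acu 4, 6 and 28, with a difference of 1.39 (SE 0.80, limma adjusted p = 0.746) that was 0.78 without those libraries (SE 0.49, limma adjusted p = 0.984). Nod2 (0.752, 2.79 and 2.77 FPKM), Card9 (1.07, 2.24 and 5.28 FPKM) and Myd88 (15.8, 19.8 and 23.2 FPKM) were lowest in Acu 4 as well. Their differences were −0.29 (SE 0.40), −0.95 (SE 0.55) and −0.18 (SE 0.38), with limma adjusted p-values of 0.818, 0.746 and 0.882. Without the libraries labelled Control 17 and Acu 4 they were 0.082 (SE 0.38), −0.58 (SE 0.45) and −0.035 (SE 0.44), with limma adjusted p-values of 0.991, 0.984 and 0.996.

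Acu was also set against Control, which shares its libraries with the comparisons above. Over all libraries limma called 0 of 10 members and 0 of 17010 genes (0.0%), with 5 members and 1275 genes (7.5%) at an unadjusted p under 0.05. Tlr2, Tlr9 and Myd88 were higher in all Acu than in all Control libraries, 3 of 10 members where 4.87% of all genes did so. Without the libraries labelled Control 17 and Acu 4, limma called 3 of 10 members, all higher, where 0.878% of genes rose and 3.47% fell. Clec7a rose by 3.54 (SE 0.43, limma adjusted p = 0.0157), Clec4e by 2.75 (SE 0.50, limma adjusted p = 0.0258) and Clec4n by 3.90 (SE 0.73, limma adjusted p = 0.0286). Clec4d (2.50, SE 0.72) and Tlr2 (1.65, SE 0.48) had limma adjusted p-values of 0.0909 and 0.0947. With Control 15 left out as well none passed (0.0% of genes rose), and the limma adjusted p was 0.0578 for Clec7a, 0.158 for Clec4e and 0.118 for Clec4n. With AIA 10 left out in place of Control 15, Tlr2 (1.65, limma adjusted p = 0.0172) and Tlr9 (2.54, limma adjusted p = 0.0479) passed too, where 5.39% of genes rose.

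The rest of the pathway was read from 8 lists with 131 genes, all found in the table, of which 125 were tested. Over all 10 libraries 0 of them passed in any comparison, with 49 at an unadjusted p under 0.05 in AIA against Control (25.0% of all genes), and voom called 0. Without the libraries labelled Control 17 and Acu 4, 23 of 123 rose and 4 fell in AIA against Control, where 4.36% of all genes rose and 9.06% fell. With Control 15 left out as well, 10 rose and 2 fell, where 0.466% and 2.36% of all genes did. In Acu against Control 9 rose and 2 fell, where 0.878% and 3.47% of all genes did, and in Acu against AIA 0 passed. The list counts and single genes that follow are for AIA minus Control without those 2 libraries unless stated.

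Among the genes between the lectins and NF-kB, 2 of 13 rose, where 4.36% of all genes did, and the median of the list was 1.5002 against 0.00033 over all genes. Plcg2, a phospholipase below Syk, rose by 2.74 (limma adjusted p = 0.0382), and Tyrobp, a signalling partner of myeloid receptors, by 2.11 (limma adjusted p = 0.0142). Without Control 15 as well, neither passed, with 1.29 for Plcg2 (limma adjusted p = 0.206) and 2.17 for Tyrobp (limma adjusted p = 0.0800). Fcer1g and Syk were singled out after their values were seen. Fcer1g, the gamma chain itself, was 17.2, 11.6 and 129 FPKM in Control 15, 16 and 17, with AIA at 14.9 to 76.8 FPKM. The groups thus overlapped, and the highest value was that of the library labelled Control 17. Syk stood 1.57 higher (limma adjusted p = 0.157), and 0.24 higher without Control 15 as well (limma adjusted p = 0.855), where Control 16 alone was 29.0 FPKM. Ptpn6, a phosphatase that restrains such signals, and Vav1 stood 2.92 and 2.51 higher over all libraries, with limma adjusted p-values of 0.169 and 0.157, and 2.47 and 2.01 higher without the 2 libraries (0.149 and 0.109). Both are made by lymphocytes too, and Ptpn6 was 133 FPKM in Control 16 against 4.6025 FPKM in Control 15.

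Among the other C-type lectins 2 of 16 rose and 1 fell, where 4.36% and 9.06% of all genes did. Clec4a3 rose by 2.15 (limma adjusted p = 0.0211) and Clec5a, a myeloid receptor that uses Tyrobp, by 2.05 (limma adjusted p = 0.00448). Mgl2, a galactose-binding lectin of macrophages and dendritic cells, fell by 2.92 (limma adjusted p = 0.00286), being at 11.8 and 7.51 FPKM in Control 15 and 16 and at most 0.619 FPKM in AIA. With Control 15 left out as well, Clec4a3, Clec5a and Mgl2 passed too, at 2.80, 1.84 and −2.63 (limma adjusted p-values of 0.0400, 0.0424 and 0.0213). Control 15 and Control 16 had the highest adipocyte markers, and the part of these in that fall was not tested. Olr1, a receptor of oxidised lipoprotein, was 271 and 427 FPKM in the libraries labelled Control 17 and Acu 4 and at most 0.938 FPKM elsewhere.

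Of the other Toll-like receptors and their helpers 5 of 17 rose and 1 fell, against the same 4.36% and 9.06%. Tlr13 and Tlr7, which sense bacterial and viral RNA, rose by 1.87 (limma adjusted p = 0.0220) and 1.65 (limma adjusted p = 0.0489). Ly96 and Ly86, partners of Tlr4 and of its relative Cd180, rose by 1.41 (limma adjusted p = 0.0442) and 1.998 (limma adjusted p = 0.0252). The chaperone Hsp90b1, which secretory cells make in quantity, rose by 2.62 (limma adjusted p = 0.0171). Tlr1, the partner of Tlr2 for lipopeptides, was 47.4 FPKM in Control 16, 1.84 and 0.720 FPKM in Control 15 and 17, and 8.17 to 61.4 FPKM in AIA, and it did not pass (limma adjusted p = 0.412). Cd36, a fatty acid carrier of fat and vessels that also helps Tlr2, fell by 5.19 (limma adjusted p = 0.0033). Its levels were 1172, 262 and 3.52 FPKM in Control 15, 16 and 17, and 8.21 to 24.4 FPKM in AIA, all above Control 17. Control 15 and Control 16 had the highest adipocyte markers, and the part of these in that fall was not tested. Without Control 15 as well, Tlr13 (limma adjusted p = 0.0475) and Cd36 (0.0228) passed, and Tlr7, Ly96, Ly86 and Hsp90b1 did not (limma adjusted p-values of 0.342, 0.339, 0.210 and 0.0825). Lbp, which hands lipopolysaccharide to Tlr4, was 595 and 574 FPKM in the libraries labelled Control 17 and Acu 4 and at most 2.06 FPKM elsewhere.

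Below Myd88, 0 of 19 genes passed without the 2 libraries that stood apart, and the median was 0.38. Irf7, a factor that drives interferon genes, stood 2.12 higher (limma adjusted p = 0.054). Irf5 stood 1.09 higher (limma adjusted p = 0.134) and Sigirr, a brake on these receptors, 0.51 higher (limma adjusted p = 0.554). The IKK and NF-kB list had 0 of 8, with Rel at 1.51 (limma adjusted p = 0.0792), Nfkb2 at 1.00 (limma adjusted p = 0.274) and Relb at 0.48 (limma adjusted p = 0.588).

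Near Nod2, 3 of 13 genes rose, where 4.36% of all genes did. Slc15a3, a carrier of wall peptides out of endosomes, rose by 2.08 (limma adjusted p = 0.0170), Pycard, the adaptor of inflammasomes, by 2.12 (limma adjusted p = 0.0194), and Casp4 by 1.68 (limma adjusted p = 0.0368). Aim2, a DNA sensor, stood 1.296 higher (limma adjusted p = 0.309). Without Control 15 as well, Slc15a3, Pycard and Casp4 had limma adjusted p-values of 0.115, 0.184 and 0.286. Ripk2, the kinase that Nod2 uses and singled out after its values were seen, ranged over 4.26 to 6.74 FPKM in Control, with AIA at 5.76 to 7.69 FPKM, and stood 0.17 higher (limma adjusted p = 0.706).

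Among other sensors 2 of 13 rose and 2 fell, beside 4.36% and 9.06% of all genes. Fpr2, a receptor for formylated bacterial peptides, rose by 4.08 (limma adjusted p = 0.00417), being at 0.235 and 0.200 FPKM in Control 15 and 16, while AIA ranged over 12.9 to 44.1 FPKM. The scavenger receptor Msr1 rose by 1.93 (limma adjusted p = 0.00532). Scarb1, which takes up cholesterol esters, and the lipid-presenting Cd1d1 fell by 2.004 (limma adjusted p = 0.0464) and 2.61 (limma adjusted p = 0.0199). Cd1d1 was 96.2, 26.2 and 3.09 FPKM in Control 15, 16 and 17, and 4.99 to 11.7 FPKM in AIA, all above Control 17. Scarb1 was 25.7, 7.29 and 19.1 FPKM in the same Control libraries, and 1.14 to 5.25 FPKM in AIA. Without Control 15 as well, Fpr2 and Msr1 passed (limma adjusted p-values of 0.0462 and 0.0362), and Scarb1 and Cd1d1 did not (0.383 and 0.157).

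The output list had the most calls, 9 of 24 higher and 0 lower (4.36% and 9.06% of all genes), with a median of 1.60. Il1b was 24.7, 32.8, 9.27 and 14.7 FPKM in AIA 5, 10, 31 and 38 and 0.0638, 0.611 and 0.273 FPKM in Control 15, 16 and 17, and rose by 3.89 (limma adjusted p = 0.00332). Acod1, which makes itaconate in activated macrophages, was listed at 0 in Control 15 and 16 and at 0.472 FPKM in the library labelled Control 17. It was 12.9 to 34.7 FPKM in AIA and rose by 4.19 (limma adjusted p = 0.00292). Saa3, an acute phase gene, split the AIA libraries as Clec4d did, with 79.1 and 84.7 FPKM in AIA 5 and 10 and 8.36 and 6.59 FPKM in AIA 31 and 38, and rose by 4.55 (limma adjusted p = 0.0270). Without Control 15 as well, Il1b and Acod1 passed (limma adjusted p-values of 0.0410 and 0.0242), and Saa3 did not (0.186). The other genes that passed without the libraries labelled Control 17 and Acu 4 were Il1rn, Ccl2, Ccl3, Ccl4, Ptgs2 and Il10.

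The genes whose log2 levels followed each member most closely are given as a description over libraries that share their groups, with Pearson's r over all 10 and then over the 8 without Control 17 and Acu 4. For Clec4e they were Acod1 (0.953 and 0.988), Tyrobp (0.952 and 0.961) and Fpr2 (0.936 and 0.966). For Clec7a they were Ms4a6d (0.960 and 0.977), Slpi (0.948 and 0.957) and Il1rn (0.948 and 0.987). For Clec4d they were F10 (0.987 and 0.987), Ccr2 (0.985 and 0.976) and Cd300c2 (0.979 and 0.972), and for Clec4n Mefv (0.989 and 0.982), Xcr1 (0.986 and 0.984) and Grem1 (0.986 and 0.977). Several of these, such as Ms4a6d, Ccr2 and Fpr2, are genes of monocytes and macrophages, and Ccr2 is in that marker list. Xcr1 is in the dendritic list, so the closest genes are not all of 1 cell type. Tlr2 was closest to 3 immunoglobulin variable segments, led by Igkv4-68 (0.967 and 0.978). The closest gene was Dennd4c for Tlr4 (0.991 and 0.961), Camk1d for Tlr9 (0.981 and 0.985), Itgb2 for Nod2 (0.974 and 0.972), Gngt2 for Card9 (0.984 and 0.968) and Slfn9 for Myd88 (0.976 and 0.975). Among the members, Clec7a and Clec4e were at 0.95 over both sets of libraries, while Tlr4 and Card9 were at −0.95 and −0.87.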

How the data were processed

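The authors deposited a table of FPKM per gene and library. The submitters' processing notes name the build mm10 and, with no role or order, DESeq2 1.16.1, featureCounts 1.5.0-p3, HISAT2 2.0.5 and StringTie 1.3.3b. Per the labels' protocols, libraries were made with an NEBNext Ultra RNA kit. FPKM times gene length were whole multiples of 1 step per library in 100% of genes above 0 (tolerance 0.01), which gave the reads behind each value. Median-of-ratios scale factors of the FPKM were all 1. The deposited values already followed such factors of the reads, from 0.696 in AIA 10 to 1.244 in Acu 6, and not total reads. Those factors were computed over all 10 libraries, with the libraries labelled Control 17 and Acu 4 among them. Differences were fitted with limma 3.58.1 (R 4.3.3) on log2(FPKM + 1) with a pseudocount of 1, over all 10 libraries, with empirical Bayes and trend, 2-sided. P-values were adjusted by Benjamini-Hochberg over the 17010 genes that reached 0.5 FPKM in 3 libraries or more, with a threshold of 0.05. FPKM are not counts, so no count model was the main test, and voom on the recovered reads was an alternative. The fit was also run on simulated reads with the same spread for every gene and no libraries that stood apart. That run therefore does not show how the fit behaves on these libraries. The members and lists were chosen with earlier results of these data known. All members were named, with the 3 genes of each pathway list that had the largest absolute difference between AIA and Control, list genes that passed without the libraries labelled Control 17 and Acu 4, and the 3 genes most like each member. The sham acupuncture group named in the protocols was not analysed here.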

Additional observations from a re-analysis of the deposited data

How the results depend on the processing

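Over 19 alternatives, the lectins and Tlr2 kept their direction in AIA minus Control in 19 of 19, and passed in 3 (Tlr2) to 6 (Clec7a). The size of that difference could not change with no filter, without trend, on FPKM as deposited, with 2 groups only or without an Acu library. Those alternatives changed only the p-values or nothing, and so say nothing of direction. On recovered reads with voom, Clec4e stood 5.91 higher (limma adjusted p = 0.109). Genes called in AIA minus Control were 4 as reported, 0 with a pseudocount of 0.1 or voom, 1 with no filter, 40 without trend and 785 with these 2 groups only. They were 2156 without the libraries labelled Control 17 and Acu 4, 443 without Control 15 as well and 3398 without AIA 10 as well, and 0 to 1713 leaving out 1 library. Members called were then 4 with 2 groups only, 5, 2 and 6 in those 3 added fits, and 0 to 5 leaving out 1 library. Pathway genes called were 1 without trend, 17 with 2 groups only, 27, 12 and 42 in the added fits, and 0 to 24 leaving out 1 library. In Acu minus AIA, 2 genes were called with no filter and 0 to 1 leaving out 1 library. In Acu minus Control, 1 gene was called with no filter, 698 without the libraries labelled Control 17 and Acu 4, 2096 without AIA 10 as well, and 0 to 303 leaving out 1 library. Members called there were 3 and 5 in those added fits and 0 to 1 leaving out 1 library, and pathway genes 11, 29 and 0 to 6. The added fits were chosen after seeing the data, and the cause of these changes was not tested.

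Some directions reversed. Tlr4 in AIA minus Control, −1.26 over all libraries, was 0.20 without Control 17, Acu 4 and Control 15, and 0.034 without Control 17, Acu 4 and AIA 10. In Acu minus AIA, without Control 17 and Acu 4, with or without Control 15, Tlr2 was 0.094 and Nod2 was 0.082. Leaving out 1 library, Tlr2 ran from −0.40 to 0.12, Nod2 from −0.51 to 0.082 (reversed without Acu 4) and Myd88 from −0.49 to 0.039 (reversed without AIA 38) in that comparison. Tlr2 reversed without AIA 5, and without Acu 4 at 0.094. In Acu minus Control, Tlr4 ran from −0.61 to 1.09 and reversed without Control 15, Control 16 or Acu 4. Card9 ran there from −0.34 to 0.63, reversed without Control 17 or Acu 28, and was −0.28 without Control 17, Acu 4 and Control 15. The cause was not tested. No paired analysis was possible because the groups share no replicate number.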
